A study of Arabidopsis thaliana with 18 samples.

Results

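Expression was compared between 28 and 52 h after treatment in plants of Arabidopsis thaliana that had received salicylic acid (SA). The comparison rests on 6 of the 18 arrays of the series, the 3 labelled SA at 28 h and the 3 labelled SA at 52 h, which were chosen by their labels alone. All plants were of the natural accession Kin-0, and all were treated with silwet, a wetting agent that lets a solution coat a plant. The SA plants received SA at a concentration of 0.30 mM together with 0.02% silwet, and the others silwet at 0.02% alone, each sampled at 4, 28 and 52 h with 3 biological replicates. The silwet arrays of 28 and 52 h, also 6, were the background for the same interval without SA. The labels name no tissue, plant age, time of day or untreated group. All 20 nuclear photosynthesis genes that carry a name here were above the filter level on all 6 SA arrays. The root hair expansins EXPA7 and EXPA18 and the seed oleosin OLEO3 were below it on all 6, while PYK10, a beta-glucosidase best known from roots, was above it.

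SA is a hormone of plant defence. It is made in response to biotrophic pathogens, is perceived through NPR1 and related receptors, and switches on pathogenesis-related genes, WRKY transcription factors and enzymes that attach sugars to SA itself. Glucosylation and methylation turn free SA into other forms. The interval studied here covers the days after the early response.

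The deposited values were linear MAS5 signals, a brightness with no absolute unit, for 22746 probe sets besides the controls, and 15216 of them were bright enough to be tested. Levels of different probe sets cannot be compared. Replicate 1 stood apart from replicates 2 and 3 at both times. Over the 6 SA arrays, replicate number took 72.2% of the sum of squares of the log2 signals (60.7% for replicate 1 against the other two), time took 11.2% and the rest was 16.7%. The 2 SA arrays of replicate 1 had a log2 ratio of 3' to 5' control signal of 2.01 at 28 h and 2.04 at 52 h, against 1.22 to 1.52 on the other 4, and a median signal of 26.96 and 29.2 against 32.0 to 35.1. The test therefore compared arrays within replicate number, and values are given for each replicate.

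**Figure D1:**
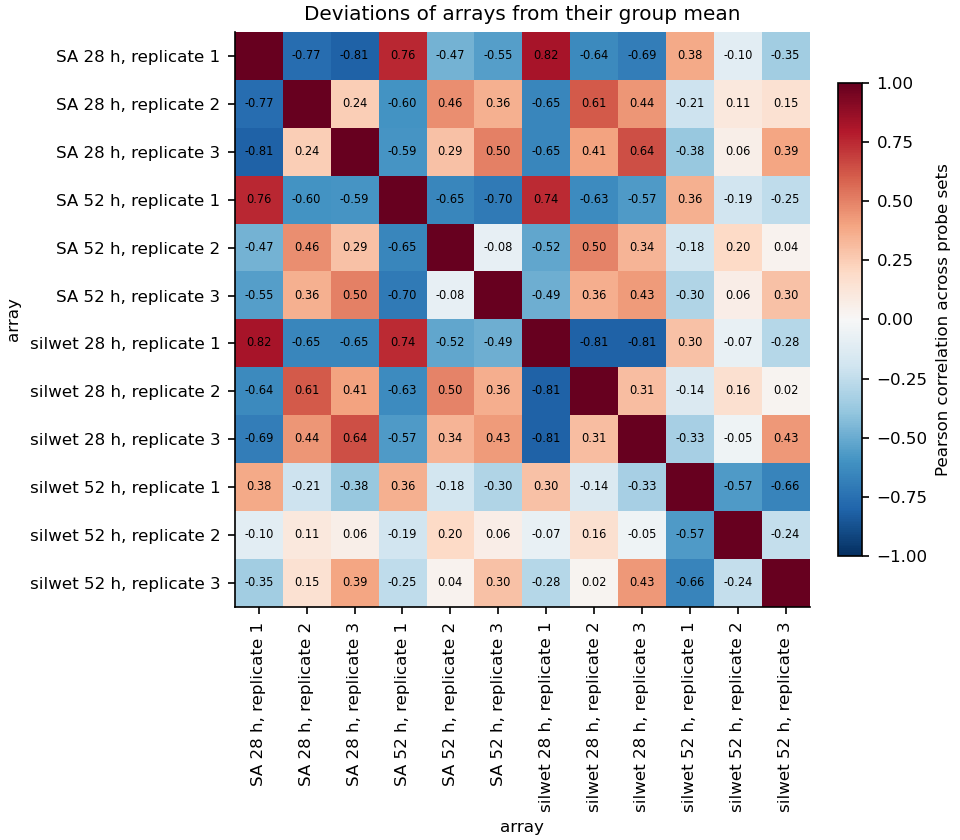
Pearson correlation, across 15216 probe sets, between the deviations of arrays from their own group mean, for the 12 SA and silwet arrays at 28 and 52 h (colour scale and printed values, rows and columns are arrays). SA arrays of the same replicate number at 28 and 52 h correlate at 0.756, 0.461 and 0.503, and the replicate 1 arrays oppose those of replicates 2 and 3. Deviations within a group cancel out, so part of the opposition within a group is built in. Silwet 52 h replicate 1 correlates at only -0.145 to -0.377 with replicates 2 and 3 of the other groups.

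No probe set passed the test between 28 and 52 h in SA plants (0 of 15216, or 0%, limma with Benjamini-Hochberg adjustment, lowest adjusted p = 0.396). At an unadjusted p under 0.05 there were 642, 220 higher (1.45%) and 422 lower (2.77%) at 52 h, where chance alone gives 761. With array weights 5 probe sets passed, without the SA 52 h array of replicate 1 there was 1, and without all replicate 1 arrays, a setting chosen after seeing the data, there were 2, each lower at 52 h. Among the larger differences were lower signals at 52 h of genes known to respond to SA, and the differences below are measured values that did not pass. More than 2-fold differences were measured for 247 probe sets (1.62%), 46 higher and 201 lower. The median standard error of a log2 change was 0.24, and 79.6% of probe sets had a 95% interval that lay within a 2-fold change in either direction, against 34.3% within 1.5-fold. A single probe set of median precision would have needed a log2 change of 1.69, or 3.22-fold, to be called alone.

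Of the SA response markers, only 4 carried a name and could be followed, where 54.6% of all tested probe sets carried 1 gene. All 4 were lower at 52 h than at 28 h in the fit, with a median log2 change of -0.78 against 0.0082 for all probe sets. The median was -0.41 with signals below the filter level, the 40th percentile of their array, raised to it. In 2 of the 4 the arrays of the times did not overlap, where 2.71% of all probe sets were lower without overlap and 2.02% higher. AT3G28510, which encodes an AAA-type ATPase, had signals of 13.8, 29.9 and 20.4 in replicates 1 to 3 at 28 h and 1.44, 3.88 and 12.5 at 52 h. All 3 arrays at 52 h were below every array at 28 h, and all 3 were also below the filter level. Signals under that level carry little information, so the 52 h values were raised to it, which gives at least 1.12-fold lower. With all signals below the level raised to it, the log2 change was -0.25 (SE 0.27). The limma adjusted p of 0.575 is for signals as deposited, with a log2 change of -2.30 (SE 0.45). WRKY53, a transcription factor of defence and leaf senescence, had 127, 72.3 and 66.4 at 28 h, compared with 62.2, 19.8 and 64.5 at 52 h, a log2 change of -0.98 (SE 0.46). The times came close without overlapping, and replicate 3 hardly differed. WRKY53 was the lowest of 7 tested WRKY genes, which had no common direction. Of these, 4 were above and 3 below 0, with a median log2 change of 0.01 and a highest of 0.98. GRX480, a glutaredoxin induced by SA through TGA factors, had 133, 81.7 and 134 against 126, 44.3 and 79.4 (-0.57, SE 0.28). AT5G03350, a legume lectin family gene, had 141, 110.2 and 322.5 against 216, 97.5 and 208 (-0.06, SE 0.38), so its direction differed between replicates and it turned to 0.47 without replicate 3 of 28 h and to 0.23 without replicate 2 of 52 h.

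Among genes of SA turnover, UGT76B1, which glucosylates SA and related defence compounds, had 48.1, 85.1 and 65.9 at 28 h and 10.1, 12.9 and 17.3 at 52 h. The times did not overlap and every array at 52 h was below the filter level, which gives at least 3.56-fold lower. With signals raised to that level the log2 change was -1.83 (SE 0.52). The limma adjusted p of 0.986 is for signals as deposited. Its signals at 4 h after SA had been 1598, 2378 and 2116. BSMT1, a methyltransferase that makes methyl salicylate, had 98.4, 53.5 and 154 against 94.2, 9.95 and 22.0, a log2 change of -1.77 (SE 0.86) with little difference in replicate 1. SAG101, a partner of EDS1 in immune signalling, had 33.6, 27.3 and 40.6 against 30.3, 24.6 and 26.5 (-0.30, SE 0.25). All 3 tested members of the list for SA synthesis, perception and turnover were thus measured lower at 52 h, and none passed the test.

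**Figure D2:**
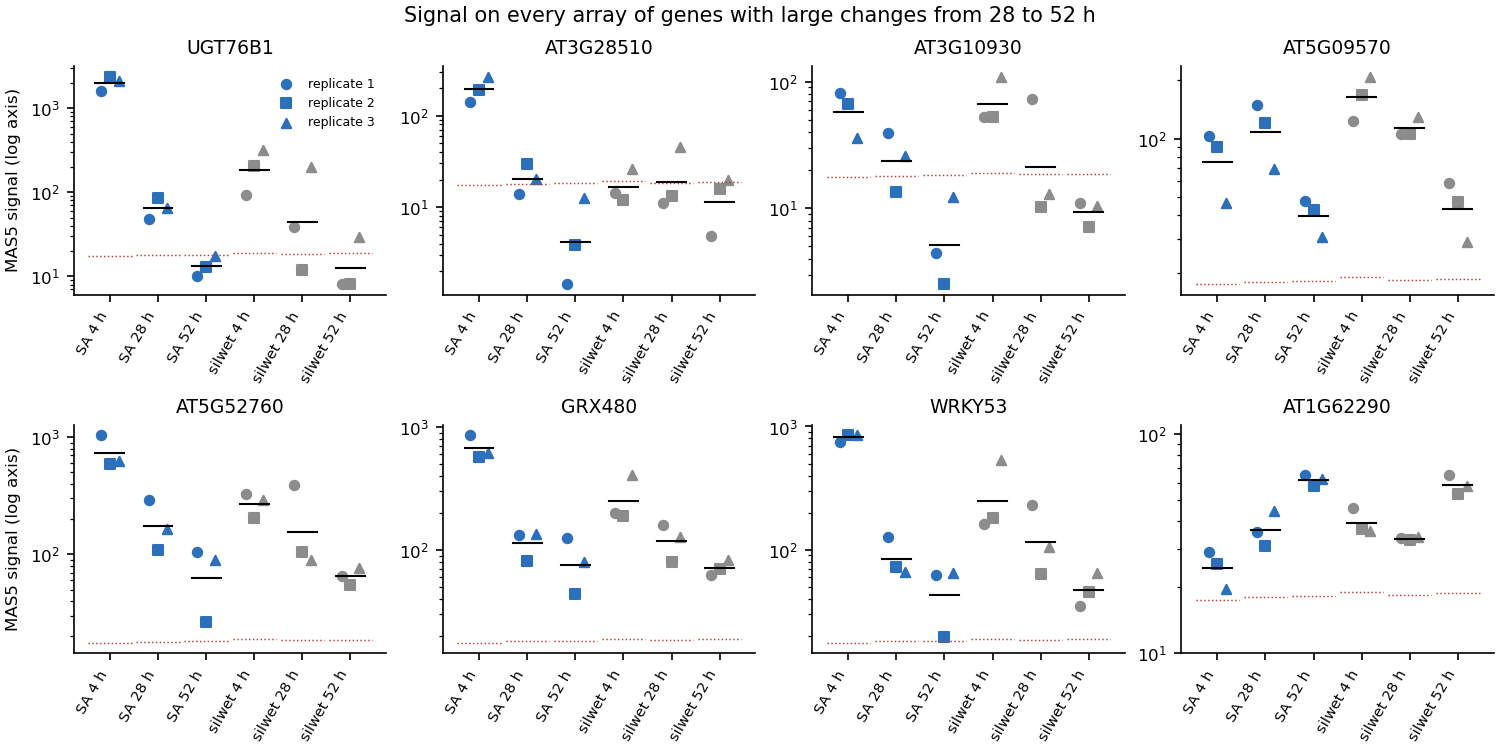
MAS5 signal (log axis, no absolute unit) on each of the 18 arrays for 8 genes, with SA arrays in blue, silwet arrays in grey, marker shape for replicate number, the geometric mean of a group as a black line and the mean filter level of its arrays as a dotted red line. UGT76B1 is at 48.1 to 85.1 at 28 h and 10.1 to 17.3 at 52 h in SA plants, and AT5G09570 and AT1G62290 separate the times in both treatments.

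The genes with the largest changes in SA plants, among those with 1 named gene, no overlap between times and an unadjusted p under 0.01, included 5 higher and 5 lower at 52 h. On the higher side, AT1G62290, an aspartic protease, had 35.8, 30.8 and 44.8 at 28 h, compared with 65.2, 58.2 and 62.7 at 52 h, a log2 change of 0.76 (SE 0.19, adjusted p = 0.986). AT2G16750, a protein kinase family gene, had 27.4, 28.0 and 18.5 against 50.6, 46.0 and 28.1 (0.74, SE 0.23). AT5G06630, an extensin-like cell wall protein gene measured by a probe set that can also bind related genes, had 26.4, 25.6 and 25.1 against 41.5, 43.1 and 39.5 (0.69, SE 0.23). HOS3-1, of the fatty acid elongase family, lay under the filter level in all replicates at 28 h. With signals raised to it the log2 change was 0.44 (SE 0.22), and the bound was at least 1.36-fold higher at 52 h. For AT5G41320 the same bound was under 1, and no fold is given.

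On the lower side, besides AT3G28510 and UGT76B1, AT3G10930, a gene of the IDA-like signal peptide family, had 39.1, 13.5 and 25.6 at 28 h, compared with 4.47, 2.52 and 12.2 at 52 h, at least 1.31-fold lower. AT1G08590, a receptor-like kinase of the CLAVATA1 group, had 17.9, 23.9 and 24.2 against 8.44, 12.3 and 3.63, at least 1.20-fold lower. AT5G51440 encodes a small heat shock protein and had 17.5, 16.5 and 16.9 against 7.56, 14.2 and 1.31, but the bound was under 1 and no fold is given. These lower genes ended below the filter level, so only a bound on the measured fold is given. Such a bound compares group means and does not allow for the spread between arrays. With signals raised to that level, the log2 change was -0.54 (SE 0.41) for AT3G10930 and -0.27 (SE 0.13) for AT1G08590. For AT5G51440 it was -0.02 (SE 0.25). The 2 probe sets with the lowest p values lay outside the rule for named genes and were singled out after their values were seen. The first, 267500_s_at, is not paired with a single gene here and had 43.1, 63.6 and 80.5 against 25.2, 31.7 and 33.6 (-1.01, SE 0.17, adjusted p = 0.396). The other, AT1G03660, had 76.7, 69.0 and 91.0 against 30.0, 37.4 and 34.7 (-1.21, SE 0.22, adjusted p = 0.396).

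UDP-glycosyltransferases attach sugars to hormones and other small molecules, and 33 were tested. Their median log2 change was 0.04, with 17 above and 16 below 0, so the family had no common direction. At an unadjusted p under 0.05, 1 was higher and 6 were lower, where the shares over all probe sets were 1.45% higher and 2.77% lower. UGT71B1 had 68.8, 80.3 and 86.1 at 28 h, compared with 51.1, 52.6 and 50.9 at 52 h, separate in all replicates (-0.60, SE 0.20). UGT87A2 had 86.4, 189.9 and 257 against 82.9, 96.9 and 137 (-0.65, SE 0.22), with almost no difference in replicate 1. UGT76E12 had 33.0, 22.6 and 72.6 against 35.1, 1.21 and 10.5, again with none in replicate 1. The 2 low arrays were below the filter level, and with signals raised to it the log2 change was -0.72 (SE 0.44). UGT73D1 lay under the filter level in all replicates at 52 h, and the bound on its group means was 1.29-fold lower. Its times overlapped, and with signals raised to the level the log2 change was -0.38 (SE 0.38). UGT73C1 lay under the level on all 6 arrays. The higher member was UGT88A1, with 56.7, 150.04 and 165 against 102, 209.9 and 227 (0.60, SE 0.25).

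Of 12 phenylpropanoid and flavonoid genes, 6 were above and 6 below 0. AT3G13610, the oxygenase F6'H1 of scopoletin synthesis, had 124, 107 and 113 at 28 h, compared with 44.9, 31.1 and 56.3 at 52 h, without overlap (-1.42, SE 0.40, adjusted p = 1).

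Of 17 calcium sensor, U-box ligase and other rapid stress genes, 12 were below and 5 above 0, with a median log2 change of -0.32 (-0.22 with signals raised to the filter level). The medians of the 3 replicates were -0.14, -0.19 and -0.49. At an unadjusted p under 0.05, 1 was higher and 3 were lower (1.45% and 2.77% of all probe sets). The higher one, PUB22, a U-box ubiquitin ligase of immune and stress signalling, had the largest log2 value of the list, but all 6 SA arrays had it under the filter level and no change is given. ATMPK8, a MAP kinase, was higher without overlap, with 115, 136 and 132 at 28 h and 154, 139 and 153 at 52 h (0.22, SE 0.18). CML37, a calmodulin-like protein, had 39.2, 24.9 and 23.8 at 28 h, compared with 19.4, 5.77 and 15.2 at 52 h, without overlap. Of the latter, 2 arrays were below the filter level, and with signals raised to it the log2 change was -0.60 (SE 0.24). CML41, of the same family, had 117, 122 and 92.1 against 64.3, 50.8 and 69.2 (-0.84, SE 0.34), also without overlap. PUB24, a U-box ubiquitin ligase that dampens immune responses, had 93.2, 88.8 and 124 against 69.4, 62.7 and 88.2 (-0.47, SE 0.20), narrowly without overlap. STZ, a zinc finger repressor of stress responses, had 301, 111 and 210.2 against 184, 35.4 and 143 and was lower in each replicate, but its times overlapped (-0.97, SE 0.48).

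Of 17 genes of leaf senescence and autophagy, 16 were below 0, with a median log2 change of -0.23 and replicate medians of -0.23, -0.18 and -0.04. Most of this list are ATG8 genes, which encode the ubiquitin-like protein of autophagosome membranes. ATG8H had 151, 109 and 152 at 28 h, compared with 143, 41.4 and 67.3 at 52 h (-0.88, SE 0.43), and ATG8E had 224, 126 and 178 against 147, 122 and 107 (-0.46, SE 0.29). Both overlapped between times. SAG29, the sugar transporter SWEET15, had 384, 430.1 and 354 against 177, 38.6 and 177, without overlap (-1.86, SE 0.75). At an unadjusted p under 0.05 there were 2 of the 17, SAG29 and WRKY53, both lower, where 2.77% of all probe sets were.

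Of 20 nuclear photosynthesis genes, 17 were above 0 (51.5% of all probe sets were), with a median log2 change of 0.18. The replicate medians were 0.26, 0.21 and 0.12, and the summed signal of the 20 ranged from 32400 to 37900 at 28 h and from 38400 to 43800 at 52 h, without overlap. LHCB4.2, a chlorophyll-binding antenna protein of photosystem II, had 1164, 1384 and 1267 against 1500.0, 1822 and 1649 (0.38, SE 0.19). ATPC1, the gamma subunit of the chloroplast ATP synthase, had 3264, 3348 and 3370.0 against 4020.4, 4229 and 3632 (0.25, SE 0.11). RCA, Rubisco activase, had 1458, 3542 and 3188 against 2192, 4055 and 3966 (0.37, SE 0.21), with replicate 1 low at both times. Against these, NdhS, of the chloroplast NADH dehydrogenase-like complex, had 735, 707 and 659 against 671, 549.6 and 344 (-0.48, SE 0.24). With quantile normalization the median of the list was 0.07. In bulk RNA, fewer cells of a type and less RNA per cell cannot be told apart.

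The plastid genome gave 69 tested probe sets, of which 51 were above 0, with a median log2 change of 0.15. Replicates disagreed, with medians of 0.48, 0.56 and -0.65. None was lower and 5 were higher at an unadjusted p under 0.05, against 2.77% and 1.45% of all probe sets. They included atpB, a catalytic subunit gene of the chloroplast ATP synthase, with 3935, 2383 and 3662 at 28 h, compared with 5088, 3500.4 and 4129 at 52 h (0.37, SE 0.12). They also included atpH, of the membrane ring of the same enzyme, with 146, 173 and 322.1 against 346, 284 and 1208 (1.29, SE 0.48), and psbF, a cytochrome b559 subunit gene, with 2921, 2252 and 2452 against 4011, 2591 and 3087 (0.33, SE 0.13). These members were higher in every replicate, but choosing them by a low p in the same data favours members whose replicates agree. Their agreement therefore says nothing about the list, whose median in replicate 3 was below 0.

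Growth genes showed no common direction. Of 41 genes of cell wall loosening, 24 were above 0 with a median of 0.08, and none had an unadjusted p under 0.05. The median moved to 0.16 with a filter at the 60th percentile or without replicate 3 of 28 h, and to -0.03 without replicate 3 of 52 h. Of 7 auxin genes, 2 had an unadjusted p under 0.05, both lower (2.77% of all probe sets were) and both enzymes that join auxin to amino acids. GH3.3 had 37.4, 102 and 188 at 28 h, compared with 26.4, 38.7 and 80.7 at 52 h (-1.04, SE 0.35). GH3.17 had 14.3, 28.9 and 47.6 against 12.1, 14.2 and 19.2. GH3.17 was below the filter level on 1 array at 28 h and 2 at 52 h, and with signals raised to it the log2 change was -0.60 (SE 0.22). In both, the arrays of the times overlapped while each replicate was lower.

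**Figure D3:**
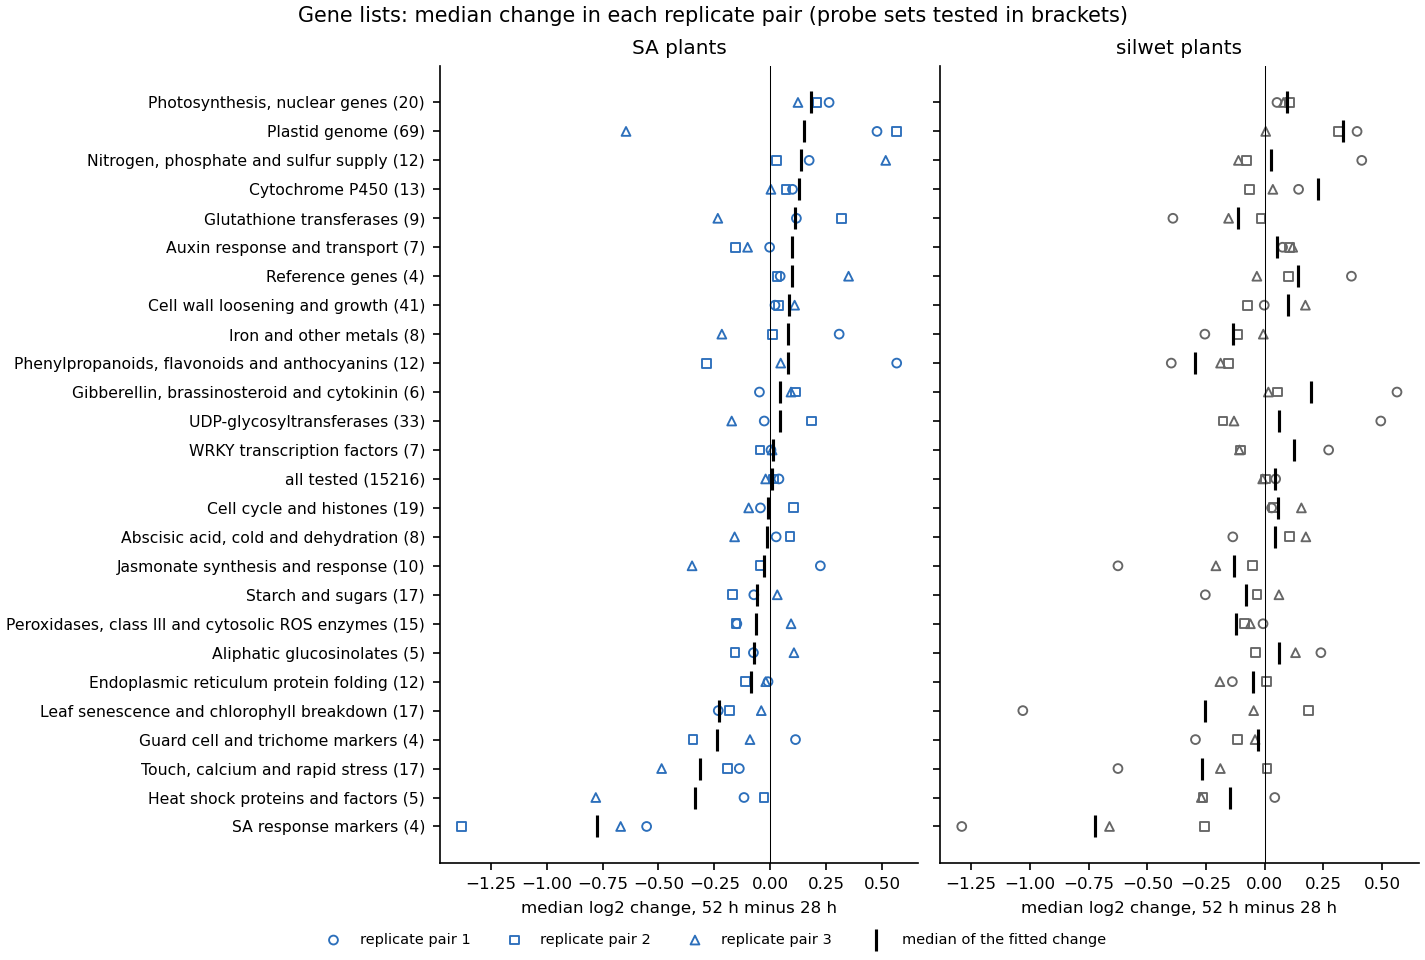
Median log2 change from 28 to 52 h of each gene list with at least 4 tested probe sets, in SA plants (left) and silwet plants (right), with the number of tested probe sets in brackets, open markers for the 3 replicate pairs and a black bar for the median of the fitted changes. The SA response markers lie lowest in both treatments (-0.78 and -0.72), and the plastid list spans -0.65 to 0.56 over the SA pairs.

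**Figure D4:**
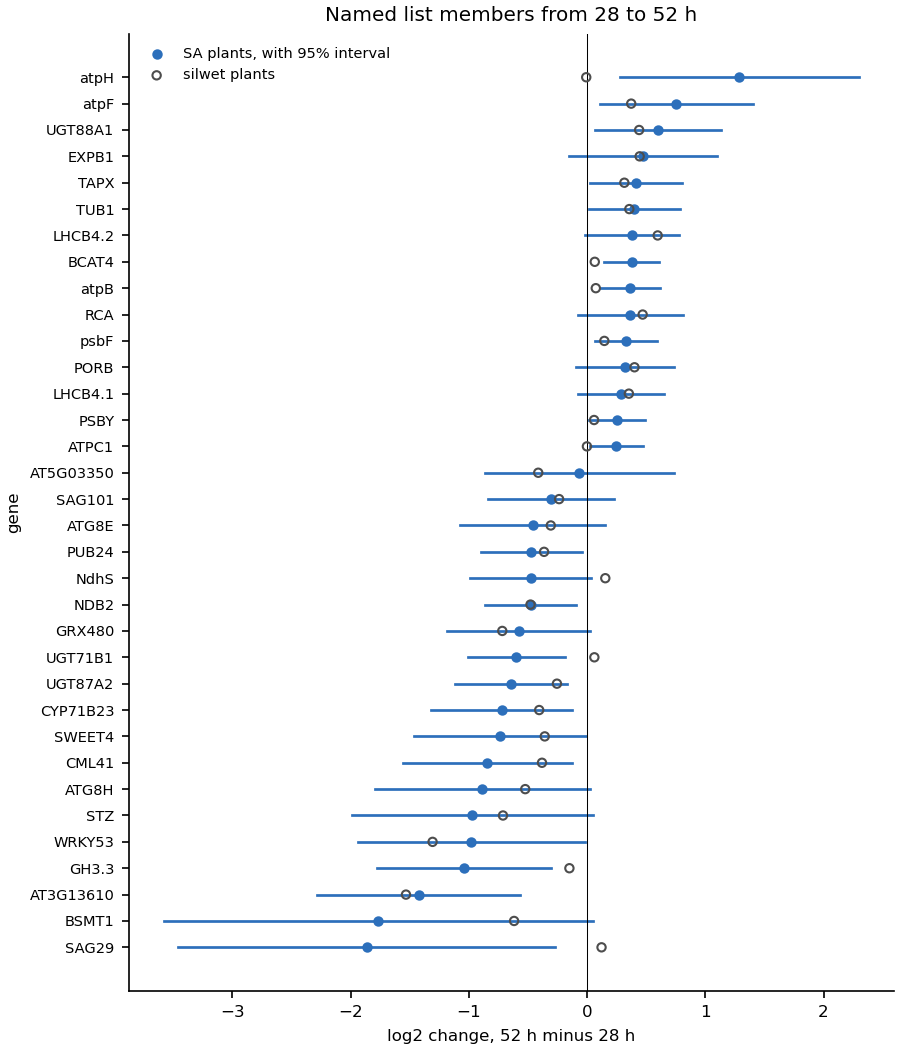
Log2 change from 28 to 52 h of named list members, as filled points with 95% intervals in SA plants and open circles in silwet plants, ordered by the SA value, for members with at most 1 array of an SA group below the filter level. AT3G13610 lies at similar values in both treatments (-1.42 and -1.53). SAG29 is at -1.86 in SA plants (95% interval -3.46 to -0.27) and 0.12 in silwet plants (95% interval -1.47 to 1.72, not drawn).

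Silwet plants were followed over the same interval, and 0 of 15216 probe sets (0%) passed the test there too (limma, lowest adjusted p = 0.362), with 1048 at an unadjusted p under 0.05, 626 higher (4.11%) and 422 lower (2.77%). The 4 SA response markers were all below 0 in silwet plants as well, with a median log2 change of -0.72 (-0.57 with signals raised to the filter level). UGT76B1 had 38.2, 11.8 and 201 at 28 h, compared with 8.07, 8.21 and 29.7 at 52 h in silwet plants. With signals below the filter level raised to it, as 3 of these were, the log2 change was -1.26 (SE 0.52). AT3G13610 had 151, 51.1 and 132 against 18.96, 33.4 and 66.5 (-1.53, SE 0.40), and WRKY53 had 229.5, 64.0 and 106 against 35.1, 45.3 and 64.6 (-1.31, SE 0.46). AT1G62290 had 33.4, 32.8 and 33.97 against 65.3, 53.5 and 57.8 (0.81, SE 0.19). Each of these 4 genes was thus measured on the same side in both treatments. For WRKY53 and AT3G13610 the largest silwet decrease was in replicate 1. In silwet plants the median of the rapid stress genes was -0.27 (-0.09 with signals raised to the filter level). Their replicate medians were -0.625, 0.01 and -0.19. The senescence genes had a median of -0.25, with replicate medians of -1.03, 0.19 and -0.05. In both lists the decrease was thus mostly in replicate 1. The median was 0.10 for the nuclear photosynthesis genes and 0.33 for the plastid genome. Across all probe sets the changes in SA and silwet plants had the same sign for 62.9% (Pearson r = 0.379 across probe sets, which are not independent replicates). Of the 136 probe sets with an unadjusted p under 0.01 in SA plants, 119 (87.5%) had the same sign in silwet plants. The treatments share no array here, but their replicate numbers pair them.

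**Figure D5:**
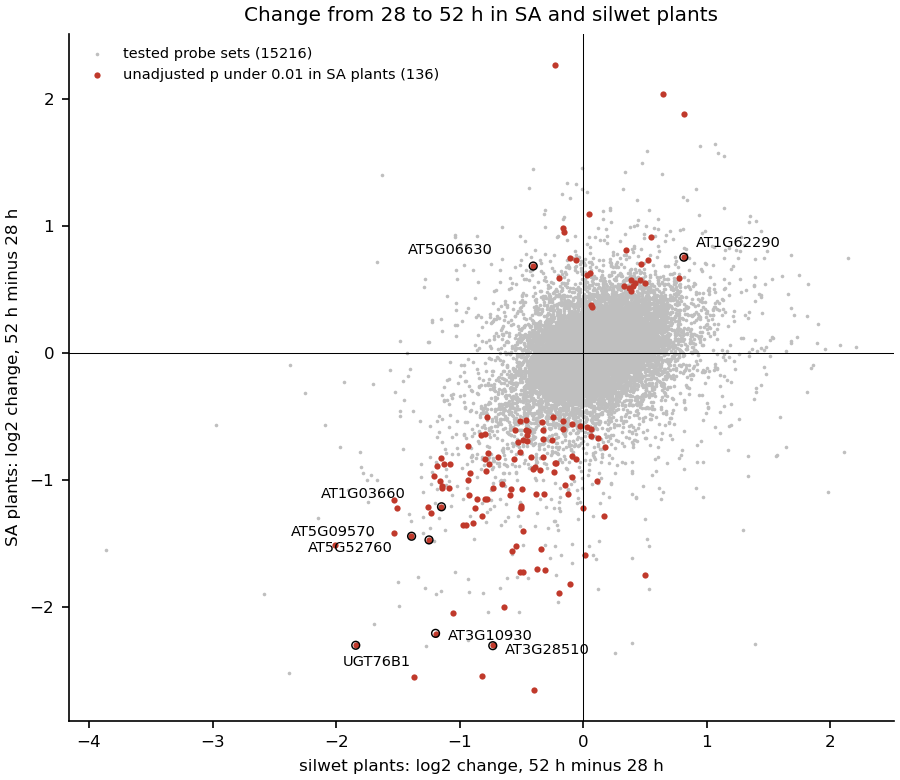
Log2 change from 28 to 52 h in SA plants (vertical axis) against silwet plants (horizontal axis) for 15216 probe sets, with the 136 at an unadjusted p under 0.01 in SA plants in red and 8 named genes circled. Of the red points, 119 lie on the same side of 0 in both treatments, most of them lower at 52 h.

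The genes with the largest changes in silwet plants, chosen in the same way, included 5 higher and 5 lower, where 3.12% of all probe sets were higher and 2.69% lower without overlap between times. AT5G09570, a small cysteine-rich protein of the mitochondrial intermembrane space type, had 105, 105 and 129.9 at 28 h, compared with 58.7, 47.0 and 29.1 at 52 h in silwet plants (-1.39, SE 0.30). In SA plants it had 149, 119.8 and 69.9 against 47.4, 42.7 and 30.8 (-1.44, SE 0.30), without overlap in either treatment. AT5G52760, a heavy-metal-associated domain protein gene, had 394, 105 and 90.1 against 66.0, 54.6 and 77.1 in silwet plants (-1.25, SE 0.36). In SA plants it had 289, 109.8 and 166 against 104, 26.7 and 89.0 (-1.47, SE 0.36). AT3G13950 had 394, 168 and 236 against 52.1, 117 and 122 (-1.46, SE 0.36). GSTU25, a glutathione transferase, lay under the filter level in all silwet replicates at 52 h and was at least 1.13-fold lower. With signals raised to that level its log2 change was -0.21 (SE 0.195). For AT3G21080 the bound was under 1. Of the higher genes, AT2G01820, a receptor-like kinase, had 46.5, 189 and 162 against 198, 210.3 and 223 (0.90, SE 0.29). AT1G10020 had 10.4, 40.6 and 44.3 against 46.2, 67.1 and 84.1, and AT5G17910 had 15.5, 40.5 and 47.3 against 69.6, 55.5 and 71.1. AT3G17740 had 4.77, 24.9 and 23.9 against 29.2, 38.8 and 27.9. These 3 genes were below the filter level in replicate 1 at 28 h, and with signals raised to it the log2 changes were 1.04 (SE 0.29), 1.03 (SE 0.34) and 0.55 (SE 0.15). In all 4 the largest difference was in replicate 1, which was below the other replicates at 28 h. In SA plants replicate 1 of these 4 genes was the lowest at both times, with 80.8 and 60.8 for AT2G01820. In these genes the silwet 52 h array thus stood apart from the other replicate 1 arrays of 28 and 52 h. AT2G30560 had a bound under 1.

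The change in SA plants minus that in silwet plants was tested directly. No probe set passed (0 of 15216, 0%, lowest adjusted p = 1), and 265 had an unadjusted p under 0.05 where chance gives 761. UGT76B1 differed by -0.58 (SE 0.73) between treatments with signals raised to the filter level. As deposited, AT3G13610 differed by 0.11 (SE 0.57), WRKY53 by 0.33 (SE 0.64) and AT1G62290 by -0.06 (SE 0.27). SAG29 differed by -1.99 (SE 1.06). Its silwet signals were 379, 79.6 and 134 at 28 h against 82.9, 239 and 265 at 52 h, so their direction differed between replicates. AT5G06630 differed by 1.09 (SE 0.32), and neither gene passed the threshold. For AT3G28510, below the filter level on most of these arrays, the difference with signals raised to that level was 0.10 (SE 0.38). The probe set 267500_s_at, at 27.4, 58.2 and 56.1 against 34.1, 53.4 and 62.0 in silwet plants, differed by -1.12 (SE 0.25). For this comparison genes were named by an unadjusted p under 0.01 and a difference of 1 sign in all 3 replicates, and their arrays could overlap between times. On the higher side there were 5. AT4G31030 (1.32, SE 0.43) and AT1G71910 (1.25, SE 0.41) had a log2 change below 0 in silwet plants and above 0 in SA plants. AT1G05710, AT4G22212 and AT4G28330 lay under the filter level in every silwet replicate at 52 h, as did AT1G05710 in every SA replicate at both times. With signals raised to that level they differed by 0.21 (SE 0.17), 0.36 (SE 0.39) and 0.65 (SE 0.26). On the lower side there were 3. AT1G22930 differed by -0.92 (SE 0.30), AT1G74360, a receptor-like kinase, by -0.79 (SE 0.26), and Phox3 by -1.01 (SE 0.35).

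A comparison of 52 with 28 h averaged over SA and silwet plants, added after the separate results were seen, called 2 of 15216 probe sets (0.0131%), both lower at 52 h. AT1G03660 fell by 1.18 on the log2 scale (SE 0.16, adjusted p = 0.0189). Its silwet signals were 80.1, 71.3 and 71.0 at 28 h and 28.9, 36.4 and 35.4 at 52 h, separate from each other as in SA plants. AT5G09570 fell by 1.42 (SE 0.21, adjusted p = 0.0472). Leaving out any SA array of 52 h, SA 28 h replicate 1 or silwet 52 h replicate 2 ended both calls (adjusted p 0.057 to 0.186). Leaving out SA 28 h replicate 2, silwet 28 h replicate 3 or silwet 52 h replicate 3 ended that of AT5G09570 (0.0713 to 0.117), and without the replicate block, or with signals raised to the filter level, AT1G03660 alone was called.

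Probe sets were also grouped by the response to SA at 4 h, which uses other arrays. At 4 h 1011 probe sets (6.64%) passed the test between SA and silwet, 455 higher and 556 lower after SA, against 72 and 49 without the replicate block. From 28 to 52 h the 455 had a median log2 change of -0.18 in SA plants, with replicate medians of -0.14, -0.22 and -0.15, and 78.9% were below 0 against 48.5% of all probe sets. In silwet plants their median was -0.19 and 84% were below 0 against 44.3% of all. The 556 had medians of 0.09 in SA and 0.17 in silwet plants, and 35.4% and 27.9% were below 0. With the 72 and 49 called without the block, the SA medians were -0.19 and 0.10. The median difference between SA and silwet plants for the 455 was -0.04 at 28 h and -0.0052 at 52 h. Their median was thus close to the silwet level at both times and lower at 52 h in both treatments.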

How the data were processed

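Linear intensity values of 18 ATH1 arrays were deposited by the authors in 1 table, made with MAS5 per the submitters' processing notes, with the version not given in the sources used here. From these, log2 values were taken without an offset or further normalization. A probe set was tested if at least 3 arrays had it above their 40th percentile (15216 of 22746, with the 64 control probe sets left out). The model held 6 group means and the replicate number as a block, over all 18 arrays. It was run with lmFit and trended eBayes of limma 3.58.1 (R 4.3.3), and p values were adjusted over all 15216 by Benjamini-Hochberg with a threshold of 0.05. The 3 arrays per group limit the precision.

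The replicate numbers come from the labels, which do not say what arrays of 1 number share. Deviations of same-numbered SA arrays of 28 and 52 h from their group means correlated at 0.756, 0.461 and 0.503, all above 0.1. The numbers were taken to pair the arrays. For silwet arrays of 28 and 52 h the correlations were lower, at 0.295, 0.162 and 0.432. Some same-numbered arrays of other groups correlated under 0.1, such as 0.0321 for silwet 28 h and SA 4 h in replicate 2.

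Where a gene was below the filter level on every array of a group, the fold compares the other group with values raised to that level. It is a bound on the measured means and does not allow for the spread between arrays. Gene names came from a platform annotation, updated through the TAIR10.1 gene table, and 54.6% of the tested probe sets carried 1 gene. No build is named for the array, so no positions are printed. Of 39 gene lists, 33 had a tested member, and 4 matches were removed because the symbol belonged to another gene.

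Named genes were the called probe sets of 1 gene by size of log2 change (12 in each direction for SA plants, 5 otherwise), not below the filter level on all arrays compared. Within a treatment the arrays of the times could not overlap, and for the difference between treatments all 3 replicates had to differ in 1 direction. Where fewer than 5 were called, up to 5 with an unadjusted p under 0.01 were given as not past the threshold. List members could also be named. AT1G03660, 267500_s_at, SBT3.5 and the unnamed probe sets were singled out after their values were seen. The members and lists were chosen with earlier results of these data known. The fit was tested on simulated data with known changes. The other fits used no block, a random block, only the arrays compared, quantile normalization, median centring, an offset of 5.53, no filter, a 60th percentile filter, no trend, array weights, the 3' to 5' control ratio as a covariate, at least a 2-fold change, and the omission of single arrays. The fit without all replicate 1 arrays, that with signals below the filter level raised to it, and the mean over both treatments were added after seeing the data. Python 3.11.15 with matplotlib 3.10.9 drew the figures.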

Additional observations from a re-analysis of the deposited data

How the results depend on the processing

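In SA plants, 17 of 20 recomputations called 0 probe sets, as did the fit with no replicate block (0, against 0 with it) and the 2-fold requirement. Array weights called 5, all lower at 52 h with an adjusted p of 0.0477. These were 267500_s_at (-0.99), AT1G03660 (-1.19), AT5G52760 (-1.65), AT3G28510 (-2.46) and SBT3.5, a subtilisin-like protease (-1.23). Without all replicate 1 arrays 2 were called, the unnamed 251272_at (-2.08) and 266267_at (-1.70), and leaving out 1 array gave 0 to 1, the latter being 266267_at without SA 52 h replicate 1. In silwet plants 19 of 20 called 0, and leaving out 1 array gave 0 to 1 (249770_at, -4.37, without silwet 52 h replicate 3). The difference between treatments gave 0 calls in all 26. The mean over both treatments, with 2 calls, gave 1 with no replicate block, 5 with a random block and 3 and 1 with only the arrays compared, with and without the block. It gave 1 with quantile normalization, 1 with no filter, 3 with a filter at the 60th percentile, 0 with no trend, 1 with signals raised to the filter level, 63 with array weights, 0 with the 3' to 5' ratio as a covariate, and 0 to 11 when 1 array was left out. The cause was not tested. Of 1231 recomputed SA values of single genes, 1223 kept direction and side of the threshold, 5 passed it with array weights, and 3 changed sign, 2 of AT5G03350 (0.47 and 0.23, with -0.37 to 0.47 over single arrays left out) and 1 of UGT73C1 with signals raised to the filter level (0.0080), where the silwet change of AT3G21080 also turned (0.0014). The filter level limits what can be said of dim genes, and a change under about 1.5-fold was within the 95% interval of most probe sets.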

Other observations

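Other metabolic and stress genes gave small differences in SA plants, and none passed the test. BCAT4, the aminotransferase that opens methionine-derived glucosinolate synthesis, had signals of 2203, 1203 and 1331 at 28 h, compared with 2602, 1659.5 and 1788 at 52 h, higher in each replicate (log2 change 0.38, SE 0.11), while the 5 tested genes of that list had a median of -0.07. TAPX, the thylakoid ascorbate peroxidase, had 214, 329 and 309.9 against 269.1, 460.3 and 417 (0.42, SE 0.18). NDB2, an alternative NADH dehydrogenase of mitochondria, had 181, 196 and 187 against 144, 111 and 154, without overlap (-0.48, SE 0.18), and its change in silwet plants was also -0.48 (SE 0.18). CYP71B23, a cytochrome P450, had 110.2, 84.5 and 123 against 69.4, 37.0 and 99.2 (-0.72, SE 0.28), and the 13 tested P450 genes had a median of 0.13. TUB1, a beta-tubulin, had 83.9, 99.97 and 111 against 134, 121 and 132, without overlap (0.40, SE 0.18).

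The clock gene GI had 66.4, 353 and 455 at 28 h, compared with 119.6, 464 and 489 at 52 h in SA plants, with replicate 1 far below the others at both times. In silwet plants it had 83.9, 450.4 and 614 against 393, 363 and 546, so replicate 1 was low at 28 h and not at 52 h. SWEET4, a sugar transporter, was high in replicate 1, with 207, 70.8 and 68.8 against 172, 32.6 and 39.03 in SA plants, and EXLB1, an expansin-like gene, had 245, 70.1 and 75.2 against 178, 42.2 and 42.3.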
